A study of Mus musculus with 8 samples.

Results

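Sterol and fatty acid synthesis was followed through 32 named genes in mast cells with and without editing of Mettl3. The genes were listed by name from the known lipid synthesis program of the SREBP transcription factors. The list was drawn up with earlier results of these data known, so its counts, set beside those over all genes, are descriptions. They comprised 17 genes of cholesterol synthesis, 5 genes of regulation and sterol transport, and 10 genes of fatty acid synthesis, desaturation and binding. Each of the 32 matched 1 gene ID among the 56748 in the count tables, and all 32 were among the 14942 genes with enough reads to be tested.

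The cells were bone marrow-derived mast cells (BMMCs), grown in culture with IL-3 from the marrow of young adult C57BL/6 mice, and the RNA came from unstimulated cells. The 8 libraries formed 2 groups of 4, numbered 1 to 4 in each, and the submitters derived the cultures from 4 mice. Mettl3-RNP cells had received ribonucleoproteins of Cas9 and guide RNAs directed at Mettl3, the gene of the catalytic enzyme that places the m6A mark on mRNA. Pulsed cells were the mock-transfected control and had received neither Cas9 nor a guide. The Mettl3-RNP cultures were not sorted for edited cells and, by the study's description, still held untargeted cells, so each value is a mean over edited and unedited cells. In such bulk RNA, fewer cells of a type and less RNA per cell cannot be told apart.

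Cells make cholesterol from acetyl-CoA through mevalonate, farnesyl pyrophosphate, squalene and lanosterol, and make fatty acids from the same acetyl-CoA through malonyl-CoA. Both routes are controlled by SREBP proteins, which sit in the endoplasmic reticulum as inactive precursors. When membrane sterol is low, the escort protein Scap carries them to the Golgi, where they are cut, and the freed part enters the nucleus and switches on the synthesis genes. When sterol is ample, Insig proteins hold Scap back. SREBP-2, encoded by Srebf2, acts mainly on cholesterol genes, and SREBP-1, encoded by Srebf1, mainly on fatty acid genes. In the nucleus SREBP binds sterol regulatory elements (SREs), usually beside sites for the factors NF-Y and Sp1.

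The promoters of 4 of the 32 genes held an exact copy of the SRE letters TCACNCCAC on either strand, in the window from 250 bases before to 50 bases after the annotated start of the Ensembl canonical transcript. Those of 3 genes are shown because they hold the letters that SREBP is known to bind, in genes of both arms. Sequences were read from the GRCm39 genome 5′ to 3′ on the strand of the gene, with capitals for the SRE letters and for the NF-Y letters CCAAT or their reverse complement ATTGG. The windows are chr13:120151735-120151911 on the plus strand for Hmgcs1, chr2:155359618-155359705 on the plus strand for Acss2 and chr11:84063835-84063873 on the plus strand for Acaca.
Hmgcs1: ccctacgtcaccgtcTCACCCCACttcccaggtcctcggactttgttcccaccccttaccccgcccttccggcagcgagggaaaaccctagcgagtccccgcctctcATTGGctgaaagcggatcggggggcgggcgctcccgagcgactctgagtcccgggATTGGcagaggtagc
Acss2: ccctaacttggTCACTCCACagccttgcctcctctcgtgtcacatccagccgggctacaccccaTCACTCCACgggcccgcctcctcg
Acaca: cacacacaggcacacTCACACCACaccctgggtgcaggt

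The SRE match began 232 bases before the start in Hmgcs1 and 98 in Acaca, where it lay in a CA-rich stretch. Acss2 held 2 matches, 239 and 186 bases before its start. A promoter with the SRE letters was found for 12.5% of the 32 genes and for 148 of 12056 tested protein-coding genes (1.23%). The NF-Y letters stood in 23 of the 32 windows (71.9%, against 39.9% of all 12056) and in 14 of the 17 cholesterol genes (82.4%). The Sp1 letters GGGCGG also stood in 23 windows (71.9%, against 58.4%). The E-box letters CACGTG stood in 5 (15.6%, against 10.1%). A match is a description of letters, and a window without one says nothing about whether SREBP acts there.

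Mettl3 itself was lower in every Mettl3-RNP library than in its Pulsed partner. Levels are given as CPM, counts per 1000000 counts of the library after its size was scaled by a TMM normalization factor. Mettl3 was at 25.9, 24.5, 11.2 and 26.5 CPM in Pulsed 1 to 4 and 12.3, 9.18, 4.88 and 9.21 CPM in Mettl3-RNP 1 to 4. It fell by 1.30 on the log2 scale (SE 0.109, edgeR quasi-likelihood adjusted p = 0.00543), and 47.5%, 37.5%, 43.7% and 34.7% of the paired Pulsed level remained in pairs 1 to 4. With 4 pairs the exact two-sided sign-flip permutation test gave p = 0.125, the smallest it allows. Total counts were 32643260 to 45324826 per library, and a member had between 116 and 45003 counts in a library. Summed CPM of the 12 mast cell markers was 49877 to 68263 in Pulsed and 46100 to 62546 in Mettl3-RNP libraries. The 9 neutrophil markers summed to at most 0.398 CPM in a library, and S100a8, S100a9, Elane, Camp and Retnlg were at 0.

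Per transcript length, the desaturase Scd2 had the highest level of the 32 genes in Pulsed cells, at a mean of 151 RPKM (CPM divided by transcript length in kilobases). Fabp5, a cytosolic fatty acid carrier, followed at 92.6 RPKM, and Fads2, which desaturates polyunsaturated fatty acids, at 79.7 RPKM. Among cholesterol genes, Sqle (66.0 RPKM) and Hmgcs1 (59.0 RPKM) were highest, and of the regulators Insig1 (64.8 RPKM) and Srebf2 (59.1 RPKM). The lowest were Mvk (5.83 RPKM), Hsd17b7 (4.84 RPKM) and Elovl6 (2.97 RPKM). All steps of both routes covered by these genes had reads in every resting culture. Levels varied between Pulsed cultures, with a median coefficient of variation of 28.7% over the 32 genes. Pulsed 4 was the highest of its group for 24 of the 32 (20.4% of all tested genes), and Pulsed 3 the lowest for 21 (33.9%). Mettl3-RNP 3 was the lowest of its group for 22 (33.7%).

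The question put to these genes was whether their RNA differed between Mettl3-RNP and Pulsed cells of the same number, and whether the cholesterol and fatty acid arms differed alike. Of the 32 genes, 2 fell past an adjusted p threshold of 0.05 and none rose. The 2 were Fabp5 and Acaca, which encodes the enzyme that makes malonyl-CoA. Over all 14942 genes, 1.39% were called lower and 2.35% higher (the members' 2 calls are 2 of 32). With a fold change of at least 1.5 also required, Fabp5 alone was called (0.816% of all genes lower). Without the replicate number as a block edgeR called no gene of all 14942 lower (0.00%) and so none of the 32, with 6 of the 32 and 1.28% of all genes lower at an unadjusted p under 0.05. At an unadjusted p under 0.05, 18 of the 32 were lower (10.7% of all tested genes), and 30 of the 32 fitted log2 changes were below 0 (50.2% of all). The median was -0.42 over the 32 genes and -0.0013 over all tested genes.

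**Figure D1:**
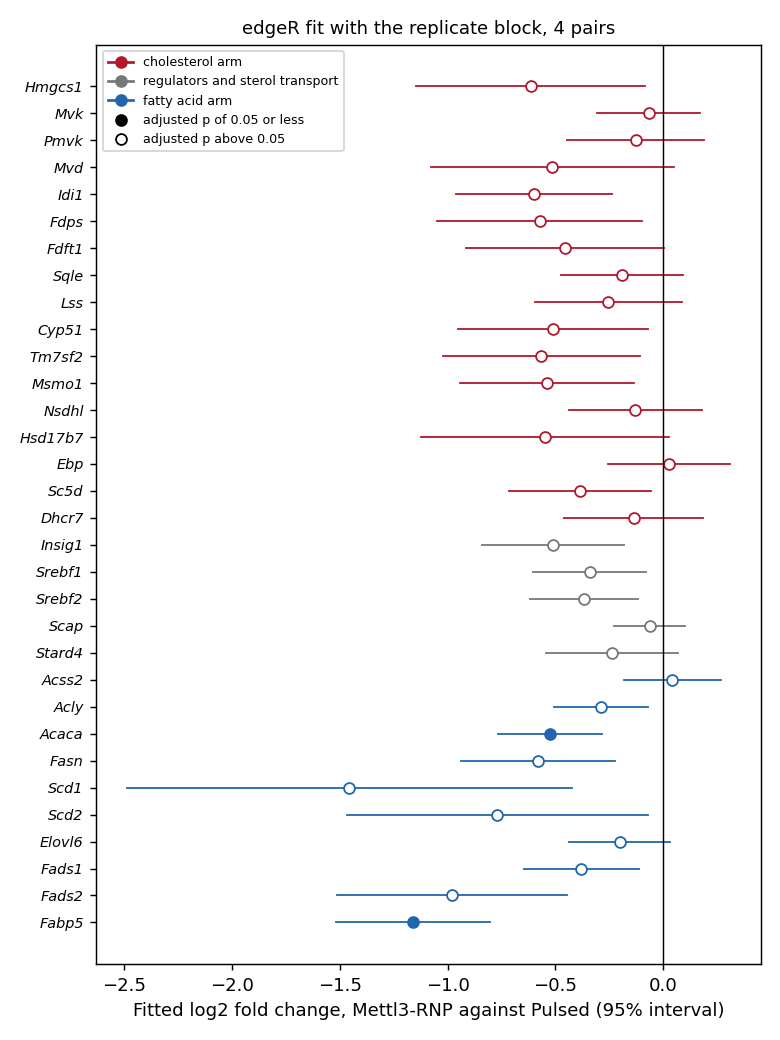
Fitted log2 fold changes, Mettl3-RNP against Pulsed, on the horizontal axis for the 32 genes grouped by arm, with 95% intervals as bars and filled points for an adjusted p of 0.05 or less. Filled points mark Fabp5 and Acaca, and 30 of 32 points lie below 0.

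The differences were not spread evenly over the pairs. In pair 1 only 5 of the 32 genes were lower in the Mettl3-RNP library than in the Pulsed library, against 32 in pair 2, 29 in pair 3 and 31 in pair 4. Over all tested genes the shares lower were 53.3%, 49.7%, 53.1% and 48.0% in pairs 1 to 4. The median log2 difference was 0.22 in pair 1 and -0.66, -0.58 and -0.51 in pairs 2, 3 and 4, while the medians over all tested genes were -0.02, 0.003, -0.03 and 0.02. Summed over the 32 genes, the Mettl3-RNP library held 116.5%, 59.7%, 61.2% and 63.2% of its partner's CPM in pairs 1 to 4. Without Scd2, the most abundant member by CPM, the shares were 111%, 62.4%, 64.2% and 65.5%. The log2 difference of Mettl3 was -1.07 in pair 1 and -1.41, -1.18 and -1.52 in pairs 2 to 4, so pair 1 had the smallest reduction of the 4. Its part in the values of pair 1 was not tested.

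**Figure D2:**
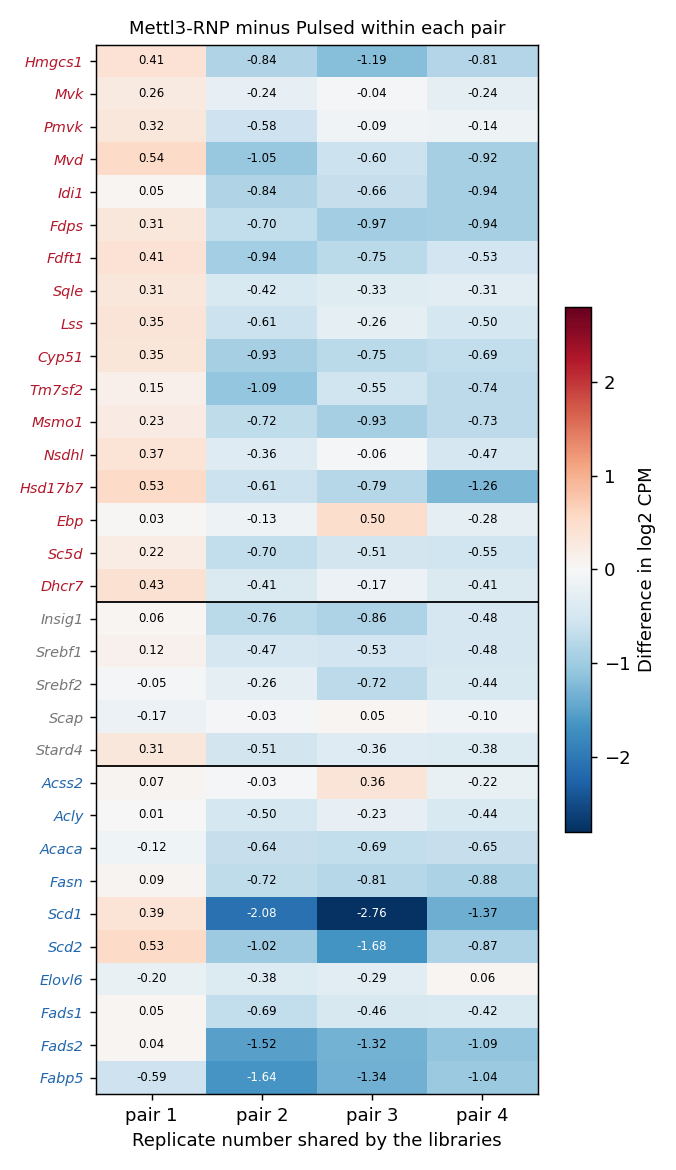
Log2 difference in CPM, Mettl3-RNP minus Pulsed, for each of the 32 genes (vertical, by arm) in pairs 1 to 4 (horizontal), as colour. Pair 1 is at or above 0 for 27 genes and pairs 2 to 4 are mostly below 0.

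In 28 of the 32 genes the Mettl3-RNP library was lower in each of pairs 2, 3 and 4, as for 21.8% of all tested genes. The exceptions were Ebp, Scap, Acss2 and Elovl6. In 25 genes pair 1 went the other way while pairs 2 to 4 were lower (5.82% of all tested genes). Only Fabp5, Acaca and Srebf2 were lower in 4 of 4 pairs (16.0% of all tested genes). Mettl3-RNP 1 was the highest library of its group for 24 of the 32 (28.8% of all tested genes), and Pulsed 1 the lowest of its group for 9 (25.6%). For none of the 32 did all Mettl3-RNP libraries lie below all Pulsed libraries (1.20% of all tested genes).

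The steps from acetyl-CoA units to farnesyl pyrophosphate are covered by 6 genes, and none was called (1.39% of all tested genes were called lower). Hmgcs1, which makes HMG-CoA at the entry to the route, was at 140.4, 243, 269 and 314 CPM in Pulsed 1 to 4 and at 187, 136, 118 and 179 CPM in Mettl3-RNP 1 to 4. Pulsed 1 fell inside the Mettl3-RNP range while Pulsed 2 to 4 stood above it. The fitted log2 change of Hmgcs1 was -0.62 (SE 0.229, 95% interval -1.15 to -0.08, adjusted p = 0.163). Idi1, the isopentenyl diphosphate isomerase, was at 24.2, 34.7, 33.8 and 37.3 CPM in Pulsed and at 24.9, 19.3, 21.4 and 19.5 CPM in Mettl3-RNP. Its log2 change of -0.60 (SE 0.157, adjusted p = 0.0735) had the smallest adjusted p of the 17 cholesterol genes. Mvd, which decarboxylates the mevalonate product, was at -0.51 (adjusted p = 0.263), and Fdps, the farnesyl pyrophosphate synthase, at -0.57 (adjusted p = 0.149). The kinases that phosphorylate mevalonate had smaller values, -0.07 for Mvk (adjusted p = 0.757) and -0.13 for Pmvk (adjusted p = 0.648).

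Between farnesyl pyrophosphate and the first sterol lie Fdft1, which makes squalene, Sqle, which oxidises it, and Lss, which closes the ring to lanosterol. Fdft1 was at 43.1, 61.9, 29.9 and 66.8 CPM in Pulsed and at 57.1, 32.1, 17.7 and 46.3 CPM in Mettl3-RNP, a log2 change of -0.46 (adjusted p = 0.228). Sqle was at -0.19 (adjusted p = 0.414) and Lss at -0.25 (adjusted p = 0.358). Cyp51, the demethylase of lanosterol, was at 91.8, 168, 177 and 193 CPM in Pulsed and at 117, 88.3, 105 and 120.1 CPM in Mettl3-RNP, a log2 change of -0.51 (adjusted p = 0.163). These genes shared the order of Hmgcs1, with pair 1 above 0 (0.41 for Fdft1, 0.35 for Cyp51) and pairs 2 to 4 below.

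The 7 later genes turn lanosterol derivatives into cholesterol, and none was called (1.39% of all tested genes were called lower). The log2 changes were lowest for Tm7sf2, a sterol reductase (-0.56, adjusted p = 0.141), Msmo1, the methyl oxidase (-0.54, 0.121), and Hsd17b7, a ketosteroid reductase (-0.55, 0.242). Sc5d, a sterol desaturase, was at -0.39 (adjusted p = 0.158). Nsdhl (-0.13, adjusted p = 0.629) and Dhcr7, the last reductase of one branch (-0.14, 0.623), were nearer 0. Ebp, a sterol isomerase, was at 59.9 ± 13.4 CPM (SD, n = 4) in Pulsed and 59.9 ± 2.71 CPM in Mettl3-RNP. Its log2 change was 0.03 (95% interval -0.26 to 0.31), and changes within that interval remain possible. The interval is not a detection limit, since larger changes of other genes in this list were not called either. Over the 17 cholesterol genes the median log2 change was -0.46, with pair medians of 0.32, -0.70, -0.55 and -0.55. None of the 17 was called, against 1.39% of all tested genes called lower, a share at which a short list can hold no call. At an unadjusted p under 0.05, 7 of the 17 were lower, against 10.7% of all tested genes.

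**Figure D3:**
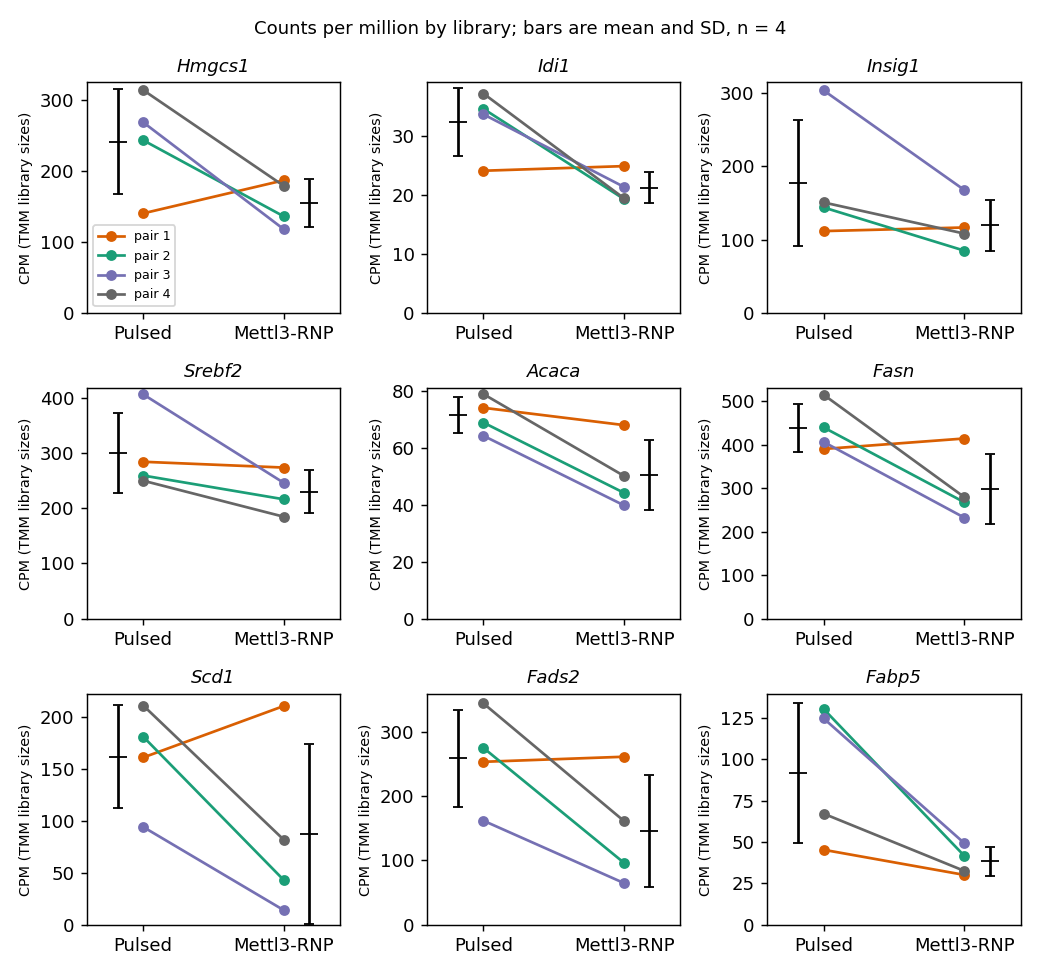
CPM (vertical axis, from 0) of 9 genes of the program in each of the 8 libraries, with lines joining libraries of the same number and mean ± SD bars (n = 4). Fabp5 and Acaca are lower in each of the 4 pairs, and for Hmgcs1 and Scd1 the pair 1 line runs the other way.

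None of the 5 genes of regulation and sterol transport was called, against 1.39% of all tested genes called lower. Insig1, the sterol-responsive retention factor for Scap and itself an SREBP target, was at 112, 144, 304 and 151 CPM in Pulsed and at 117, 84.9, 168 and 108 CPM in Mettl3-RNP. Its log2 change was -0.51 (SE 0.143, adjusted p = 0.0865). Srebf2 was at 284, 259, 406 and 249.9 CPM in Pulsed and at 274, 216, 246 and 185 CPM in Mettl3-RNP, lower in 4 of 4 pairs, with a log2 change of -0.37 (adjusted p = 0.0969). Srebf1 was at -0.34 (adjusted p = 0.127), and Stard4, a soluble sterol carrier, at -0.24 (adjusted p = 0.336). Scap, the escort, was at -0.06 (95% interval -0.23 to 0.10). Its pair differences were -0.17, -0.03, 0.05 and -0.10, and those of Insig1 were 0.06, -0.76, -0.86 and -0.48, with no test between the genes.

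The fatty acid arm held both called genes, 2 of its 10, against 1.39% of all tested genes called lower. No test compared the arms. Acaca was at 74.0, 68.8, 64.1 and 78.8 CPM in Pulsed and at 67.9, 44.1, 39.7 and 50.05 CPM in Mettl3-RNP. Only Mettl3-RNP 1 reached into the Pulsed range. Acaca fell by 0.53 on the log2 scale (SE 0.105, 95% interval -0.77 to -0.28, adjusted p = 0.0374), to 69.4% of Pulsed, and was lower in 4 of 4 pairs. Fasn, the synthase that builds palmitate from malonyl-CoA, was at 390.5, 440.2, 407 and 515 CPM in Pulsed and at 415, 268, 233 and 279.8 CPM in Mettl3-RNP, with a log2 change of -0.58 (SE 0.154, adjusted p = 0.0765). Acly, which makes cytosolic acetyl-CoA from citrate, was at -0.29 (adjusted p = 0.122), and Acss2, which makes it from acetate, at 0.04 (95% interval -0.18 to 0.27). Acss2, whose promoter held the pair of SRE matches shown above, differed by 0.07, -0.03, 0.36 and -0.22 in pairs 1 to 4.

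Desaturases place double bonds in fatty acids, and 3 of the 4 (Scd1, Fads2 and Scd2) had the lowest fitted values of the 32 genes beside Fabp5, without passing the test. Scd1 was at 161, 181, 93.9 and 211 CPM in Pulsed and at 210.3, 42.7, 13.8 and 81.5 CPM in Mettl3-RNP, a spread of 2.24-fold in Pulsed against 15.2-fold in Mettl3-RNP between the highest and lowest library. Its log2 change was -1.46 (SE 0.447, 95% interval -2.49 to -0.42, adjusted p = 0.108). Pair 1 differed by 0.39 and pairs 2 to 4 by -2.08, -2.76 and -1.37. Scd2 was at 678, 1024, 356 and 1232 CPM in Pulsed and at 977, 506, 111 and 675 CPM in Mettl3-RNP, a log2 change of -0.77 (SE 0.302, adjusted p = 0.183). Fads2 was at 253, 275, 162 and 344 CPM in Pulsed and at 261, 96.1, 64.6 and 161 CPM in Mettl3-RNP, a log2 change of -0.98 (SE 0.230, adjusted p = 0.0607). Fads1, which acts after Fads2 on the same chains, was at -0.38 (adjusted p = 0.105), and Elovl6, which lengthens palmitate, at -0.20 (adjusted p = 0.288). The median over the 4 desaturases was -0.87.

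Fabp5 fell in 4 of 4 pairs. It was at 45.3, 131, 125 and 67.2 CPM in Pulsed and at 30.1, 41.7, 49.3 and 32.5 CPM in Mettl3-RNP, with pair differences of -0.59, -1.64, -1.34 and -1.04. Its log2 change was -1.16 (SE 0.155, 95% interval -1.52 to -0.80, adjusted p = 0.0165), to 44.7% of Pulsed. Over the 10 fatty acid genes the median log2 change was -0.55, with pair medians of 0.05, -0.70, -0.75 and -0.76. The difference between the arms' medians, fatty acid minus cholesterol, was -0.27, -0.0026, -0.19 and -0.21 in the 4 pairs, and it was close to 0 in pair 2. Without replicate 1 the fitted medians stood in the opposite order, at -0.78 for the cholesterol arm and -0.77 for the fatty acid arm. This is a description, with no test, since genes are not replicates.

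Because pair 1 went the other way for most of the genes, the same test was run without each pair in turn. Without replicate 1, 18 of the 32 genes fell (0.964% of all genes called lower), 9 of the cholesterol arm, 2 regulators and 7 of the fatty acid arm. The fitted log2 change was then -2.09 for Scd1 (SE 0.217, adjusted p = 0.00661), -1.35 for Fads2 (0.00540), -1.22 for Scd2 (0.00922), -0.98 for Hmgcs1 (0.00823) and -0.84 for Fasn (0.00936). Without replicate 2, 3 or 4 the same genes ranged from -1.50 to -1.03 (Scd1), -0.93 to -0.80 (Fads2), -0.73 to -0.46 (Scd2), -0.54 to -0.42 (Hmgcs1) and -0.54 to -0.47 (Fasn), and none of these was called. The other genes called without replicate 1 were Mvd, Idi1, Fdps, Fdft1, Cyp51, Msmo1, Hsd17b7, Sc5d, Insig1, Srebf1, Acaca, Fads1 and Fabp5. The opposite direction of pair 1 was already known, so these calls are no independent support. Without replicate 2, none of the 32 was called (0.101% of all genes lower; 10 of the 32 and 6.84% of all genes at an unadjusted p under 0.05), and the smallest adjusted p was 0.0588, for Fabp5. Without replicate 3 (0.919% of all genes) or replicate 4 (0.878%), Fabp5 alone was called. The call of Acaca was lost without replicate 2, 3 or 4, where its log2 change was -0.49, -0.47 and -0.47 (adjusted p = 0.159, 0.0792 and 0.142).

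**Figure D4:**
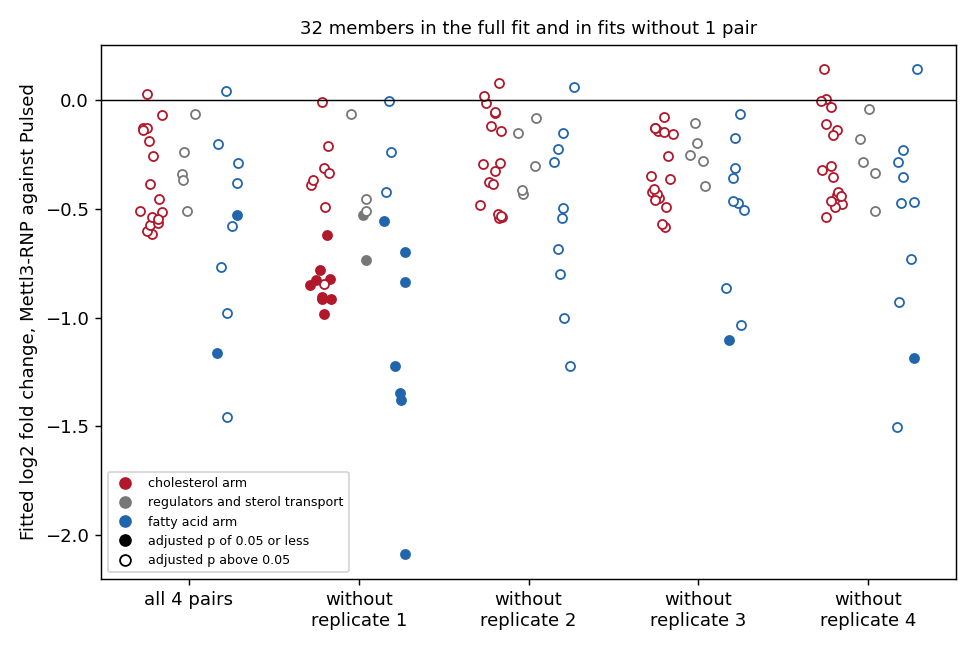
Fitted log2 fold changes of the 32 genes with all pairs and without each pair in turn. Points show the fitted value (vertical axis), coloured by arm and filled at an adjusted p of 0.05 or below. Without replicate 1 the median is -0.66, against -0.42 with all pairs.

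With other tools the median of each arm stayed below 0, and the number of genes that passed differed. DESeq2 with the block called 10 of the 32 lower (3.76% of all genes), and limma-trend on values with the replicate effect removed called 16 (15.4% of all genes). That removal takes no account of the degrees of freedom it uses, so its p-values are too small. In edgeR, keeping every gene with at least 1 count gave 16 calls (1.05% of all genes), and requiring 10 counts in every library gave 5 (2.98%). Keeping every such gene also took the adjusted p of Mettl3 from 0.00543 to 2.24e-15. Its log2 change was nearly the same (-1.30 and -1.29), so p-values under that filter are very small for 4 pairs. Scaling by DESeq2 size factors (1.26% of all genes) or by total counts (1.14%) gave the same 2 genes. No setting called any of the 32 higher.

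Neighbouring lipid genes outside the 32 were read from lists of other steps, and whether they differed from the 32 was not tested. Over all tested genes 1.39% were called lower and 2.35% higher. Of 7 genes for SREBP processing and sterol sensing, none was called, with a median log2 change of 0.02. Of 28 tested enzymes among 31 of other lipid synthesis, none was called, with a median of -0.04. Within that list 4 of the 28 were above 0 in pair 1 and below 0 in pairs 2 to 4, against 5.82% of all tested genes. They were the citrate carrier Slc25a1, which exports the carbon used for acetyl-CoA (-0.45, adjusted p = 0.0837), Tecr, a reductase of fatty acid elongation (-0.39, 0.0865), the elongase Elovl5 (-0.16, 0.355) and the acyl-CoA synthetase Acsl3 (-0.29, 0.347). Acat2, which makes acetoacetyl-CoA for the cholesterol route, had pair differences of 0.29, -0.92, 0.31 and -0.81. In 4 of 4 pairs 3 of the 28 were lower (16.0% of all tested genes) and 2 higher. The 3 were Hacd3 (-0.31, adjusted p = 0.0561), Hsd17b12 (-0.32, 0.0872) and Acsl4 (-0.28, 0.0961). Agpat2, an acyltransferase of glycerolipid synthesis, was among the 2 higher (0.34, adjusted p = 0.106).

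**Figure D5:**
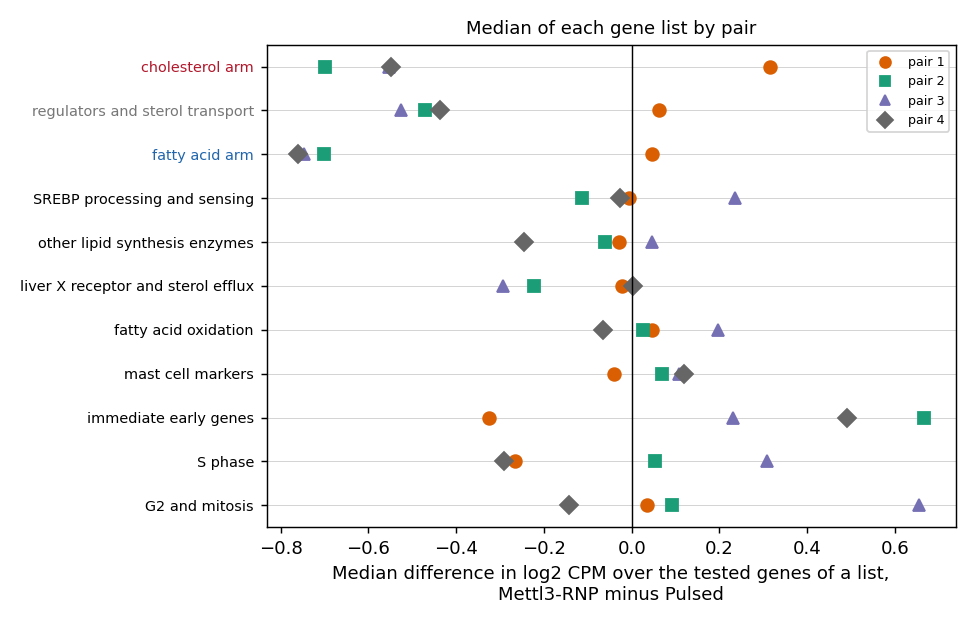
Median log2 difference in CPM, Mettl3-RNP minus Pulsed, in each of pairs 1 to 4 on the horizontal axis, for the 3 arms and 8 other gene lists. Each arm lies above 0 in pair 1 (0.32, 0.06 and 0.05) and below 0 in pairs 2 to 4, and the other lipid enzymes lie at -0.03, -0.06, 0.05 and -0.24.

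Markers of other states and cells were set beside these pairs. Immediate early genes had pair medians of -0.32, 0.67, 0.23 and 0.49, opposite in sign to the synthesis genes in each pair, and their summed CPM ranged from 602 to 22015 in Pulsed and from 771 to 25496 in Mettl3-RNP libraries. S phase genes had pair medians of -0.27, 0.05, 0.31 and -0.29, and G2 and mitosis genes 0.03, 0.09, 0.66 and -0.14. None of those genes was called. The summed basophil markers were at 565 to 683 CPM in Pulsed and at 540 to 857 CPM in Mettl3-RNP, most of it Cd200r3. Mean CPM in Pulsed was 572 for Cd200r3, 51.3 for Il18rap, 2.56 for Mcpt8, 1.13 for Prss34 and 0.544 for Itga2. The median log2 change of the 5 basophil markers was -0.68, with pair medians of -0.37, -0.44, -0.72 and -0.67. Il18rap was called lower (-0.79, adjusted p = 0.0324), Mcpt8 (-0.42), Prss34 (-0.68) and Itga2 (-0.85) were below Pulsed in 4 of 4 pairs without passing the test, and Cd200r3 was at 0.25, above Pulsed in 4 of 4. Macrophage markers summed to 9.61 to 16.0 CPM in Pulsed and 7.99 to 36.0 CPM in Mettl3-RNP, and 4 of the 10 were tested. Adgre1 was called lower (-1.13, adjusted p = 0.0435), while Cd68 was at 1.63 (adjusted p = 0.142) with pair differences of -0.43, 2.89, 0.75 and 3.10, Lyz2 at 0.02 and Cd14 at -0.38. Cd68 and Lyz2 were below 0 in pair 1 and above 0 in pairs 2 to 4. Adgre1 was below 0 in 4 of 4 pairs, and Cd14 differed by 0.18, -0.14, 0.08 and -1.82. The pair medians of the 4 tested macrophage markers were -0.86, 0.14, 0.14 and -0.30. Erythroid markers summed to 17.5 to 34.0 and 12.3 to 21.96 CPM, with Car2 called lower (-0.95, adjusted p = 0.0272). The 12 mast cell markers had a median log2 change of 0.10, and Cpa3 alone was called, lower (-0.37, adjusted p = 0.0328). In 4 of 4 pairs 1 of the 12 was lower and 2 were higher, Mitf (0.30) and Il1rl1 (0.24), neither called. Mrgprb2 was at -1.58 (adjusted p = 0.0812). Over all tested genes 1.39% were called lower and 2.35% higher. The part of these states and cells in the synthesis genes' values was not tested.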

How the data were processed

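Messenger RNA of unstimulated BMMCs was sequenced in 8 libraries. The deposited values are raw read counts per Ensembl gene, made by the authors with HISAT2 2.2.1 on GRCm39 and featureCounts 2.0.1, with FastQC 0.11.9 for read quality, per the submitters' processing notes. The study describes a batch correction after counting; the batch is not named in the sources used here, and the deposited counts are whole numbers. Strand and multimapping settings are not given in the sources used here. Of the 32 genes, 18 overlap exons of an opposite-strand gene, by 1 base (Acaca) to 2291 bases (Acss2) and in Fabp5 by 125, 3 overlap a gene on the same strand, and Scd1, Scd2 and Fabp5 have close copies, so their counts carry that uncertainty, least where the overlap is short. Mettl3 overlaps Tox4 on the opposite strand.

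Names and lengths came from the GENCODE M39 annotation, which named 56017 of 56748 IDs (98.7%). Unnamed IDs held at most 0.113% of a library's counts. Genes were kept by filterByExpr, scaled by TMM (factors 0.889 to 1.05) and tested with the quasi-likelihood test of edgeR 4.0.16 in R 4.3.3, blocking on replicate number, with Benjamini-Hochberg adjustment over 14942 genes. Pair differences are of log2 CPM with a prior count of 2. RPKM used the length of the Ensembl canonical transcript. The sequence of 1 promoter window is not reported here.

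The block was used since the submitters describe 4 mice and both groups carry numbers 1 to 4. Same-numbered libraries deviated together over 11985 genes (correlations 0.825, 0.489, 0.879 and 0.765, against at most 0.183 for other pairs). Replicates differed by more than sampling noise (lowest chi-square divided by its degrees of freedom 59.8). Whether each number was a separate culture is inferred from the series text. With the block, p-values measure the spread of the differences within same-numbered pairs of these samples. Reads carry no molecular identifiers.

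All 32 genes, Mettl3 and the called or defining genes of the other lists were named by rule. Other genes were chosen after their values were seen. These were Slc25a1, Tecr, Elovl5, Acsl3, Acat2, Agpat2, Hacd3, Hsd17b12, Acsl4, Cpt1a, Mbtps1, Mbtps2, Oxsm, Mcat, Cd68, Lyz2, Cd14, Mitf, Il1rl1 and Mrgprb2. The members and lists were chosen with earlier results of these data known. Alternatives were no block, DESeq2 size factors, total counts, 2 other filters, DESeq2 1.42.0, limma 3.58.1 and leaving out each replicate number. The depth left at least 116 counts per member in a library, so the spread between pairs limits precision.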

Additional observations from a re-analysis of the deposited data

Results flagged for a closer look

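Among 66 groups of 4 values (the 32 genes and Mettl3 in each group of libraries), 3 held a library far from the other 3 by Dixon's test, and chance alone gives 3.30. Mettl3 was at 11.2 CPM in Pulsed 3 and between 24.5 and 26.5 CPM in the other Pulsed libraries. Fads1 was at 141 CPM in Pulsed 3 and between 225 and 242 CPM in the others. Scap was at 59.9 CPM in Pulsed 1 and between 40.8 and 43.6 CPM in the others. The 2 values in Pulsed 3 belong to a library that was the lowest of its group for 21 of the 32 genes.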

How the results depend on the processing

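The median log2 change stayed below 0 in every arm under every alternative run. Across leave-outs of 1 replicate number the cholesterol median ranged from -0.78 (without replicate 1) to -0.29 (without replicate 2), the regulators' from -0.51 to -0.25 and the fatty acid median from -0.77 to -0.47. How many of the 32 genes were called lower did not. With all pairs and the block it was 2 (0 cholesterol, 0 regulators, 2 fatty acid). Without the replicate block it was 0, as for all 14942 genes (6 of the 32 at an unadjusted p under 0.05; smallest adjusted p 0.755), and Mettl3 was then at -1.31 with an adjusted p of 0.744. It was 16 when every gene with at least 1 count was kept (9, 1 and 6 by arm), 5 with at least 10 counts in every library (1, 0 and 4), 10 with DESeq2 (3, 2 and 5) and 16 with limma-trend (5, 3 and 8). Requiring a fold change of 1.5 left 1. Leaving out 1 replicate number gave 0 to 18 in all, 0 to 9 in the cholesterol arm, 0 to 2 among regulators and 0 to 7 in the fatty acid arm: replicate 1 raised the count to 18 when left out, replicate 2 ended both calls, and replicate 3 or 4 ended that of Acaca. DESeq2 size factors and total counts gave 2 each. Genes near 0 changed sign when 1 replicate number was left out, with ranges of -0.21 to 0.0043 for Mvk, -0.31 to 0.019 for Pmvk, -0.13 to 0.14 for Ebp and -0.063 to 0.14 for Acss2. The cause of these differences was not tested.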

Other observations

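Outside the synthesis program, the fatty acid oxidation list had no called gene among 15 tested of 17 and a median log2 change of 0.05. Over all tested genes 1.39% were called lower and 2.35% higher. Cpt1a, which admits long-chain fatty acids to mitochondria for oxidation, was at 23.1, 17.8, 14.99 and 19.8 CPM in Pulsed 1 to 4 and at 24.1, 35.5, 59.0 and 33.7 CPM in Mettl3-RNP 1 to 4. Its log2 change was 0.95 (SE 0.260, edgeR quasi-likelihood adjusted p = 0.0824), with the Mettl3-RNP library higher in 4 of 4 pairs, least in pair 1 (0.06) and most in pair 3 (1.97). The 6 genes of liver X receptors and sterol efflux had no call and a median of -0.17. Mbtps1, which makes the first cut in SREBP, was at 0.25 (adjusted p = 0.0701) with pair differences of 0.23, 0.27, 0.24 and 0.24. Mbtps2, of the same list of 7 SREBP processing genes, was at -0.17 (adjusted p = 0.276) and lower in 4 of 4 pairs. In that list 2 genes were lower and 2 higher in 4 of 4 pairs. Oxsm, the condensing enzyme of mitochondrial fatty acid synthesis, was at 0.41 (adjusted p = 0.0657) and higher in 4 of 4 pairs, while Mcat, another enzyme of that route, was at -0.34 (adjusted p = 0.230).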
